A study of Homo sapiens with 6 samples.

Results

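The transforming growth factor beta (TGF-beta) pathway is described here through 10 genes in MDA-MB-231 cells with knockdown of UBE3D. They are the ligand genes TGFB1 and TGFB2, the receptor genes TGFBR1, TGFBR2 and TGFBR3 and the signal transducer genes SMAD2, SMAD3 and SMAD4. The co-receptor gene CD109 and the TGF-beta-induced gene TGFBI complete them. The genes were chosen by symbol, with their knockdown-over-control changes in these same libraries already known, so their changes are a description and support nothing by themselves. All 10 were found among the 20115 genes of the table, and 1 of them, SMAD2, also gave its name to 1 of the 2014 downstream-of-gene (DoG) regions, which are stretches of transcription that run on past a gene's end. MDA-MB-231 is a triple-negative breast cancer line with mesenchymal features, and the study compared 3 libraries of cells in which doxycycline induced lentiviral short hairpins against UBE3D with 3 control libraries. Whether the control cells carried a hairpin or received doxycycline is not stated in the labels, and every sample is marked as pooled. Separate cultures are not mentioned in the labels for the libraries of a group, so the p-values rest on library-to-library spread that may be technical. The title of the series concerns CPSF73, the nuclease that cuts pre-mRNA at its 3' end (gene CPSF3), and how breast cancer cells migrate and invade. Its design text asks about gene expression and readthrough after loss of UBE3D.

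TGF-beta is secreted in a latent form that is held in the matrix and must be released before it can signal. The active ligand binds the type II receptor, a kinase that then phosphorylates the type I receptor, which in turn phosphorylates SMAD2 and SMAD3, and these enter the nucleus together with SMAD4 to change transcription. In normal mammary epithelium the pathway restrains growth, whereas in advanced breast cancer cells, MDA-MB-231 among them, it is known for promoting invasion and metastasis to bone.

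Values per library were not analysed here, so the depth of each library is unknown and the standard error (SE) is the only measure of precision. Log2 ratios are knockdown over control and come from the authors' deposited table, where shrinkage has pulled them toward 0, so they tend to understate the fold. A gene was counted as raised or lowered where the authors' deposited table gives an adjusted p under 0.05. UBE3D, the targeted gene, had a low mean of 36.7 normalized counts. It was lower in knockdown cells, with a log2 ratio of -0.80 (adjusted p = 0.00632, SE 0.37) in the authors' deposited table. A Wald test on the shrunken values, which can only weaken calls, gave an adjusted p of 0.295. CPSF3 had a log2 ratio of -0.12 (adjusted p = 0.464, SE 0.13) in the authors' deposited table. The labelled cell line was checked by counts per kilobase (kb) of annotated exon. AXL (2207), VIM (1519), CD44 (869) and EGFR (220), which mark this mesenchymal-like line, were abundant, and the hormone receptor genes ESR1 (1.60) and PGR (3.26) were near the bottom of the scale. EPCAM (152), ERBB2 (73.4) and CDH1 (12.1), also listed as low in this line, lay between. Some of these markers changed too. In the authors' deposited table CDH1 was higher at a log2 ratio of 1.06 (adjusted p = 0.00125), while EPCAM (-0.67), VIM (-0.34) and CD44 (-0.26) were lower, and of these calls EPCAM's alone held in the Wald test (adjusted p = 0.0276). Of 7 fibroblast markers 2 were higher in knockdown cells, LUM and PDGFRB, the call of PDGFRB being lost in the Wald test (adjusted p = 0.0695). The list's summed derived means came to 494 counts in knockdown and 363 in control cells, a difference carried mostly by those genes. Of 7 blood and endothelial markers 6 were in the table, and CD68 alone was lower. Their sums were 353 in knockdown and 601 in control cells, of which CD68 made up 161 in knockdown and 381 in control cells. The part of all these markers in the changes below was not tested. In bulk RNA, fewer cells of a type and less RNA per cell cannot be told apart.

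Of the 10 genes, 6 were lower in knockdown cells by the threshold on the authors' deposited table and none was raised. CD109 and TGFBR2 fell most, TGFBI, TGFBR3, TGFB1 and SMAD3 fell less, and TGFB2, TGFBR1, SMAD2 and SMAD4 missed the threshold. The ratio was below 0 in 9 of the 10, TGFB2 being the exception. Over all genes of the authors' deposited table, 7.93% were lowered and 4.62% raised. A mean of 100 normalized counts or more was reached by 9743 genes, all 10 included, and of these 12.4% were lowered and 7.45% raised. Because the genes were picked with these changes in view, nothing is read from their count against the background. Their median log2 ratio was -0.51, against -0.03 over all genes. The authors' deposited table also carries a flag that coincides in all 20115 rows with an adjusted p under 0.05 and a log2 change beyond 1 either way. That flag was set for CD109 and TGFBR2 and for 1.95% of all genes. On either side of the threshold stood SMAD3 (log2 ratio -0.42, adjusted p = 0.000735) and SMAD2 (-0.13, adjusted p = 0.406) in the authors' deposited table, so no gene lay close to it.

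**Figure D1:**
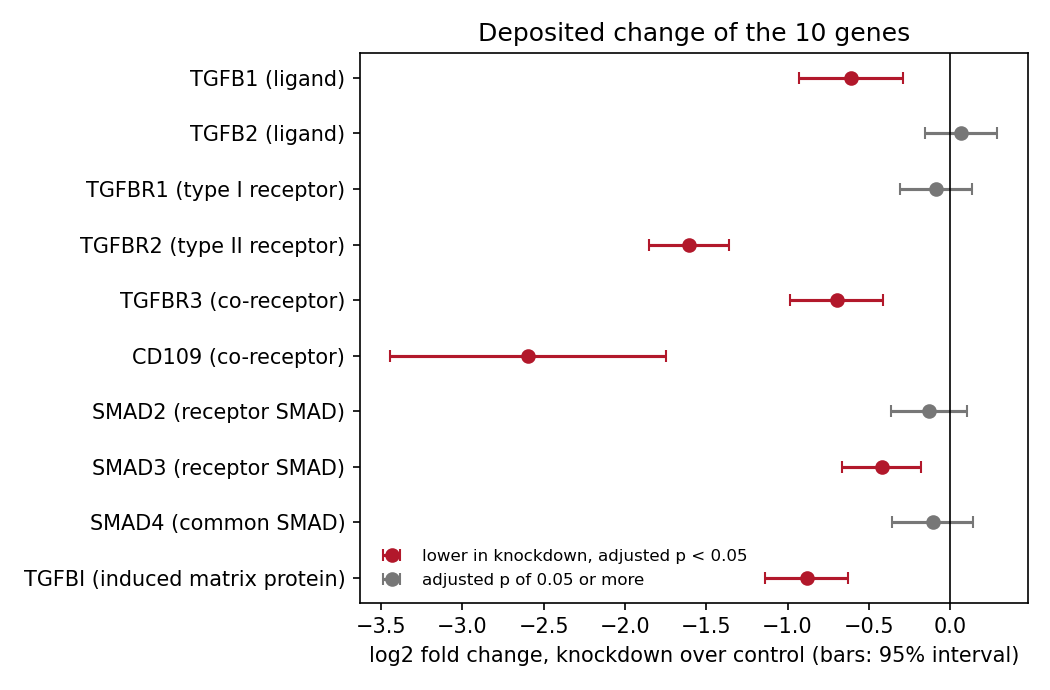
Log2 ratio of each of the 10 genes, UBE3D knockdown over control (x axis), as deposited, with bars for the 95% interval. CD109 (-2.60) and TGFBR2 (-1.61) lie farthest left, 4 further genes lie between -0.88 and -0.42, and the bars of TGFB2, TGFBR1, SMAD2 and SMAD4 cross 0.

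Among the ligand genes, TGFB1 was lower in knockdown cells and TGFB2 was not past the threshold. TGFB1 encodes the isoform most often measured in tumours and lies on chromosome 19 (41301587 to 41353911, GRCh38). Its mean of 327 normalized counts and its log2 ratio of -0.61 (adjusted p = 0.000147, SE 0.16) in the authors' deposited table correspond to group means of about 259 counts in knockdown and 395 in control cells, so knockdown cells held 65.6% of the control level. These group means, here and below, were derived from the deposited mean and the shrunken change on the assumption that the 3 libraries of each group weigh equally. TGFB2, on chromosome 1 (218346235 to 218444619), encodes the isoform that depends most on the co-receptor TGFBR3 for binding. It had a mean of 1087 counts and a log2 ratio of 0.07 (adjusted p = 0.701, SE 0.11) in the authors' deposited table, with a 95% interval (1.96 SE either way) of -0.16 to 0.29. The derived means were 1112 counts in knockdown and 1062 in control cells. Per kb of annotated exon TGFB2 was the more abundant ligand in both groups. The ratio of TGFB1 to TGFB2 on that scale was 0.371 in knockdown and 0.592 in control cells. TGFB1 shares its annotated span with 3 opposite-strand genes of the table, HNRNPUL1, CCDC97 and TMEM91. In the authors' deposited table HNRNPUL1 had a mean of 2788 counts (log2 ratio -0.04), CCDC97 187 (0.15) and TMEM91 25.6 (-0.07). None of the 3 passed the threshold there. Sequencing was stranded, but whether counting used the strand is not stated in the sources used here, so reads of these partners may be included in the TGFB1 value.

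Of the core receptor genes, TGFBR2 fell 3.05-fold and TGFBR1 missed the threshold. TGFBR2, on chromosome 3 (30606502 to 30694142), encodes the type II receptor, which binds ligand first. With a mean of 1570 counts, it had a log2 ratio of -1.61 (adjusted p = 1.01e-35, SE 0.13) in the authors' deposited table. The derived means were 775 counts in knockdown and 2365 in control cells, so knockdown cells held 32.8% of the control level. TGFBR2 ranked 33 from the lowest ratio among those 9743 genes. TGFBR1, on chromosome 9 (99104038 to 99154192), encodes the type I receptor kinase that passes the signal to the SMAD proteins. It had a mean of 1832 counts and a log2 ratio of -0.09 (adjusted p = 0.598, SE 0.11) in the authors' deposited table, with an interval of -0.31 to 0.13. Its derived means were 1777 counts in knockdown and 1886 in control cells. The difference between the receptors' log2 ratios, TGFBR2 minus TGFBR1, was -1.52 with a joint SE of 0.17. On the scale of counts per kb of annotated exon, TGFBR2 stood at 165 and TGFBR1 at 260 in knockdown cells, against 503 and 276 in control cells. The order of the receptors on that scale was therefore opposite in the groups, with a TGFBR2-to-TGFBR1 ratio of 0.635 in knockdown and 1.82 in control cells. With the longest transcript as the length the ratio was 0.615 in knockdown and 1.77 in control cells, and with the median coding transcript it was 0.551 in knockdown and 1.58 in control cells.

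**Figure D2:**
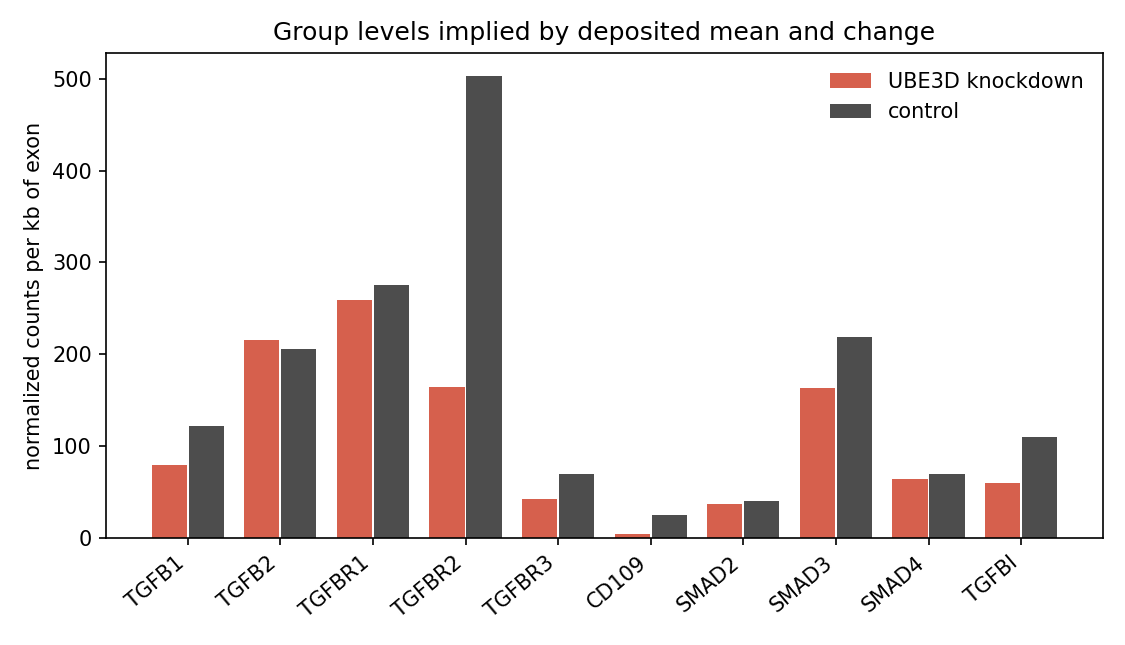
Derived group levels of the 10 genes in normalized counts per kb of annotated exon (y axis, from 0), UBE3D knockdown in red beside control in grey, with no error bars because values per library were not analysed. TGFBR2 is below TGFBR1 in knockdown cells (165 and 260) and above it in control cells (503 and 276).

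The co-receptor genes TGFBR3 and CD109 were both lower in knockdown cells. TGFBR3 encodes betaglycan, a proteoglycan that presents ligand to the type II receptor and whose shed ectodomain can sequester it, and lies on chromosome 1 (91680343 to 91906335). It had a mean of 489 counts and a log2 ratio of -0.70 (adjusted p = 2.23e-06, SE 0.14) in the authors' deposited table, with derived means of 373 counts in knockdown and 605 in control cells. TGFBR3 thus kept 61.6% of its control level where TGFBR2 kept 32.8%, and the difference between their log2 ratios, TGFBR3 minus TGFBR2, was 0.91 with a joint SE of 0.19. CD109 encodes a glycosylphosphatidylinositol-anchored protein of the alpha-2-macroglobulin family that binds TGF-beta and the type I receptor, and in skin cells it is known to promote receptor turnover and to dampen signalling. The gene lies on chromosome 6 (73695785 to 73828316). Its log2 ratio of -2.60 (adjusted p = 1.89e-10, SE 0.43) in the authors' deposited table was the most negative of the 10, 6.05-fold lower, and also had the largest SE. The 95% interval ran from -3.44 to -1.75. The mean was 141 counts, with derived means of 40.1 in knockdown and 243 in control cells, so knockdown cells held 16.5% of the control level. CD109 ranked 4 from the lowest ratio among the same 9743 genes. Per kb of annotated exon CD109 was also the least abundant of the 10, at 4.10 in knockdown and 24.8 in control cells, and it stayed the least abundant with each of the other lengths tried.

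Of 8 other alpha-2-macroglobulin and complement family genes listed, 6 were in the table, none was lowered and 1 was raised, with a median log2 ratio of -0.04. With 7.93% of all genes lowered, a count of 0 among 6 says little about the family. The raised gene was C3, the central complement component, at 0.48 (adjusted p = 0.0234, SE 0.24) in the authors' deposited table, a call lost in the Wald test (adjusted p = 0.409). Of these 6 genes, 4 had a mean under 100 counts.

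A 7-base word was looked for in the 3' untranslated regions (UTRs), because an earlier scan of these data had found that lowered genes often hold it. The word is GATTGAA, searched on the sense strand of the longest annotated 3' UTR of each gene in GENCODE 29. The sites of CD109 and TGFBR2, the genes with the largest falls, are shown with that of SMAD4, which holds the word and missed the threshold, and with the first of 4 sites in SMAD2, which also missed it. Capitals mark the word, and positions are GRCh38.
CD109, chr6:73827122-73827148, plus strand: tttattgaatGATTGAAtactcatttc
TGFBR2, chr3:30694069-30694095, plus strand: atgtttattaGATTGAAtaaagcaaaa
SMAD4, chr18:51084226-51084252, plus strand: agtgaaaatgGATTGAAaacctgttgt
SMAD2, chr18:47836156-47836182, minus strand: cttacagcctGATTGAAggtgattcag
The other 6 genes, of which TGFB1, TGFBR3, SMAD3 and TGFBI were lowered, do not hold these letters in that region. The SMAD2 region is annotated as 32870 bases long, against 591 to 6578 bases in the other 9 genes, and a longer region holds any word more often. A comparison at similar length used the 3298 genes that had a 3' UTR of 2000 to 7000 bases and a mean from 100 counts up, of which 19.1% held GATTGAA. Of the 630 with it 30.5% were lowered, against 12.9% of the 2668 without it. The word was picked for this relation in the same data, so these shares describe it and do not test it. The site of CD109 begins 3499 bases past the stop codon and leaves 1178 bases to the annotated end. That of TGFBR2 begins at 2480 and leaves 57 bases, and its last 2 bases open the letters AATAAA, which are the canonical poly(A) signal. Of 1766 such sites in the 3' UTRs of all genes in the table, 26 (1.47%) run into AATAAA in this way. None of the other sites in the 10 genes does. Of the 26 genes with a site of this kind, 7 (26.9%) were lowered, beside 23.9% of all genes with the word. A second word from the earlier scan, CTTATCT, which had gone with rises, is present in TGFBR1 (2 sites), TGFBR2 (1), SMAD2 (3) and SMAD4 (3), none of which rose, and in 21.2% of the 3298 genes. Of the genes with that word in this class 13.7% were raised, against 7.08% of those without it, again a description of the relation for which the word was picked. The sources used here do not give the hairpins' sequences, and the part of either word in the changes was not tested.

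**Figure D3:**
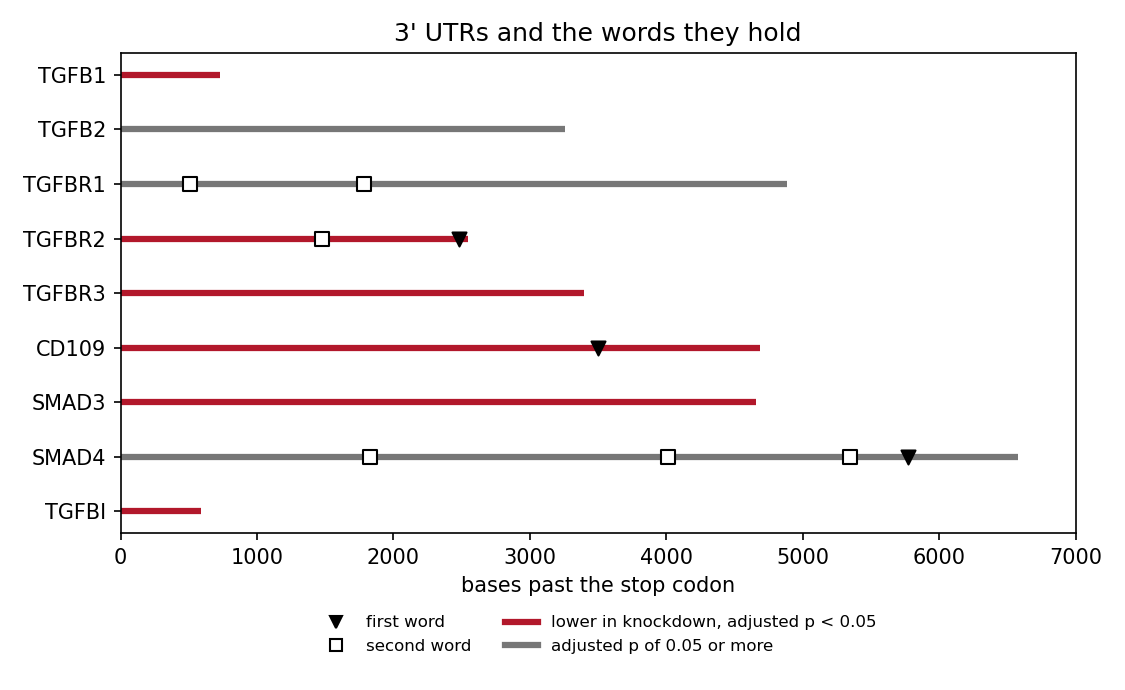
Longest annotated 3' UTR of 9 of the 10 genes (x axis, bases past the stop codon), coloured by call, with GATTGAA (first word, triangles) and CTTATCT (second word, squares). SMAD2, at 32870 bases, is left out. Of the 6 lowered genes, CD109 and TGFBR2 hold the first word.

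Of the SMAD genes SMAD3 was modestly lower, while SMAD2 and SMAD4 missed the threshold. SMAD3, on chromosome 15 (67063763 to 67195195), encodes the receptor-regulated SMAD that binds DNA directly. It had a mean of 1746 counts and a log2 ratio of -0.42 (adjusted p = 0.000735, SE 0.12) in the authors' deposited table, with derived means of 1494 counts in knockdown and 1999 in control cells. This was the smallest of the falls, and at 1.34-fold the only lowered gene of the 10 below 1.5-fold. SMAD2, on chromosome 18 (47808957 to 47931146), encodes the other receptor-regulated SMAD and had a mean of 1428 counts and a log2 ratio of -0.13 (adjusted p = 0.406, SE 0.12) in the authors' deposited table. SMAD4, also on chromosome 18 (51028394 to 51085045), encodes the partner that both share. Its mean was 878 counts and its log2 ratio -0.11 (adjusted p = 0.525, SE 0.13) in the authors' deposited table. The 95% intervals were -0.66 to -0.18 for SMAD3, -0.36 to 0.10 for SMAD2 and -0.36 to 0.14 for SMAD4. The interval of SMAD3 therefore overlaps those of SMAD2 and SMAD4, and the difference in log2 ratio, SMAD3 minus SMAD2, was -0.29 with a joint SE of 0.17.

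SMAD2 was the only gene of the 10 with a DoG region of its name. The region had a mean of 76.2 normalized counts and a log2 ratio of -0.24 (adjusted p = 0.150, SE 0.17) in the authors' deposited table, where 28.8% of all 2014 regions passed the threshold in either direction. Derived means were 69.8 counts in knockdown and 82.6 in control cells. The region's log2 ratio minus that of the gene was -0.11 with a joint SE of 0.20. No change of SMAD2 readthrough was thus detectable at this precision, with an interval for the region of -0.57 to 0.08. No DoG region carried the symbol of any of the other 9 genes in its name, so their readthrough was not examined.

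TGFBI, a secreted matrix protein first known for its induction by TGF-beta, was lower in knockdown cells. The gene lies on chromosome 5 (136028895 to 136063818). With a mean of 664 counts it had a log2 ratio of -0.88 (adjusted p = 3.83e-11, SE 0.13) in the authors' deposited table, 1.84-fold lower. The derived means were 467 counts in knockdown and 861 in control cells, so knockdown cells held 54.3% of the control level.

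**Figure D4:**
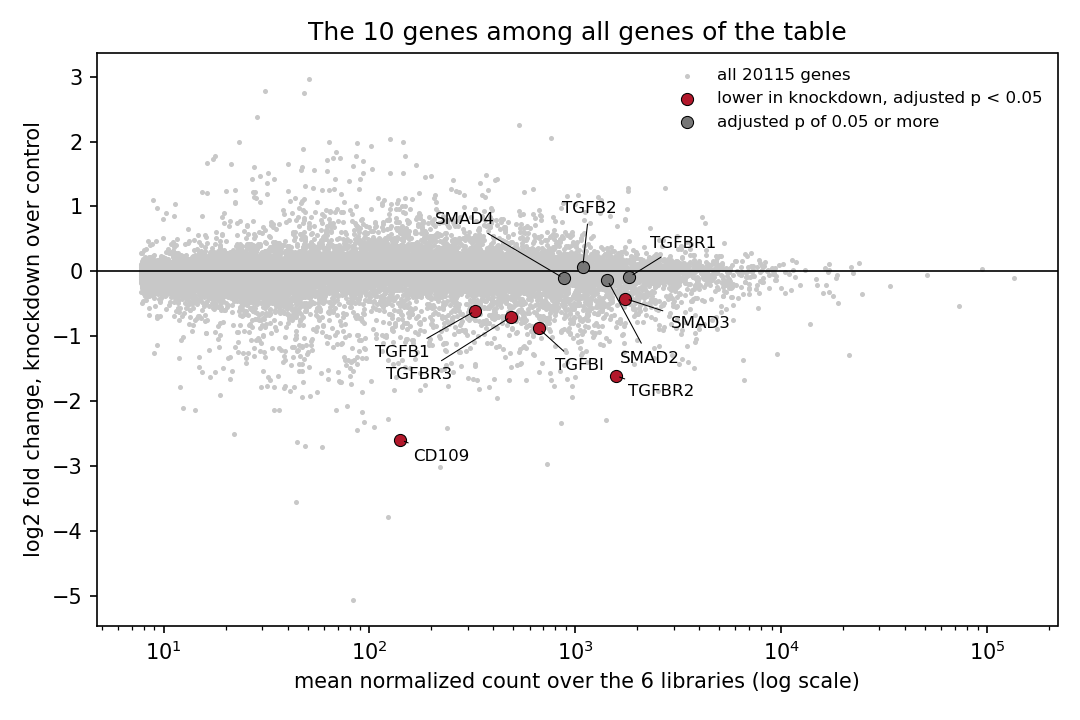
Log2 ratio (y axis, knockdown over control) against the mean normalized count (x axis, log scale) for all 20115 genes in grey, with the 10 genes marked and coloured by call. CD109 (141 counts, -2.60) and TGFBR2 (1570 counts, -1.61) lie at the lower edge of the cloud, and the genes not past the threshold lie inside it.

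Genes next to the 10 on the chromosome were also looked at. The nearest gene on each side with a mean from 50 counts up was taken for each, 20 genes in all, of which 3 were lowered and 2 raised, with a median log2 ratio of 0.02. The shares over genes with a mean from 100 counts up were 12.4% lowered and 7.45% raised, and nothing is read from these small counts. Around the 6 lowered genes, 1 of 12 neighbours was lowered and 2 were raised. One of the raised neighbours is itself a SMAD gene. SMAD6 lies 280915 bases from SMAD3 on the same strand and rose by 1.57 on the log2 scale (adjusted p = 2.37e-14, SE 0.20) in the authors' deposited table, while SMAD3 fell by 0.42. The other raised neighbour was COL12A1, a collagen gene to the right of CD109, at 0.75 (adjusted p = 3.05e-07, SE 0.14) in the authors' deposited table. The lowered neighbour was STT3B, to the right of TGFBR2, at -0.33 (adjusted p = 0.0201, SE 0.14) in the authors' deposited table. The other lowered neighbours, COL15A1 beside TGFBR1 and MEX3C beside SMAD4, flank genes that missed the threshold. COL15A1 was at -0.73 with a wide SE of 0.50, and MEX3C at -0.67 (SE 0.15), in the authors' deposited table.

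The rest of the pathway was covered by 6 further lists with 78 different genes in the table, of which 16 were lowered, 6 raised and 56 not past the threshold. Over all genes 7.93% were lowered and 4.62% raised, and from a mean of 100 counts up 12.4% and 7.45%. The median log2 ratio was -0.06, against -0.03 over all genes. Of the 78 genes, 25 had a mean under 100 counts. GATTGAA was present in the 3' UTR of 11 of the 78, of which 5 were lowered and none raised, and 11 of the 67 without it were lowered. Over all genes with a 3' UTR, 23.9% of those with the word were lowered, against 7.58% of those without it. The word was picked for this relation in the same data, so these counts describe it and do not test it. The lowered genes with the word were ITGAV, THBS1, SMURF2, TRIM33 and TGM2.

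Genes that store and release latent TGF-beta held the largest falls among these lists. Of 12 genes 4 were lowered and 2 raised, with a median log2 ratio of -0.18. The shares over all genes were 7.93% lowered and 4.62% raised, or 12.4% and 7.45% from a mean of 100 counts up. LTBP1, which tethers latent TGF-beta to the matrix, fell by 1.75 on the log2 scale (adjusted p = 6.15e-23, SE 0.17) in the authors' deposited table, with derived means of 85.5 counts in knockdown and 288 in control cells. THBS1, whose protein thrombospondin-1 can activate the latent complex, fell by 1.29 (adjusted p = 7.04e-22, SE 0.13) in the authors' deposited table. Its derived means were 12392 counts in knockdown and 30403 in control cells. ITGAV, the alpha chain shared by the integrins that release TGF-beta, fell by 0.41 (adjusted p = 0.00391, SE 0.14) in the authors' deposited table. In the authors' deposited table NRROS, a cell-surface anchor of latent TGF-beta known from myeloid cells, was lower at -0.86 (adjusted p = 0.00641), and ITGB8, a beta chain that pairs with ITGAV, was higher at 0.70 (adjusted p = 0.0272). FBN1, the fibrillin that anchors latent TGF-beta binding proteins in microfibrils, went the other way and rose by 1.15 (adjusted p = 2.10e-33, SE 0.09) in the authors' deposited table. The calls of ITGAV (adjusted p = 0.069), NRROS (0.337) and ITGB8 (0.799) were lost in the Wald test. ITGAV and THBS1 hold GATTGAA in their 3' UTRs, and LTBP1 and FBN1 do not.

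Among 11 other ligand genes of the TGF-beta and activin branch none was lowered and 1 was raised, with a median log2 ratio of 0.01. With 7.93% of all genes lowered and 4.62% raised, small counts such as these and those of the receptors below say little. The raised gene was INHBA, which encodes the subunit of activin A, a ligand that also signals through SMAD2 and SMAD3. It rose by 1.55 on the log2 scale (adjusted p = 9.10e-07, SE 0.32) in the authors' deposited table, with derived means of 92.1 counts in knockdown and 31.5 in control cells. Of these 11 genes, 10 had a mean under 100 counts, and TGFB3 was at 0.05 (adjusted p = 0.821, SE 0.20) in the authors' deposited table. Of 8 other receptor genes 1 was lowered, the activin type II receptor gene ACVR2B (-0.36, adjusted p = 0.00435), and 1 was raised, BAMBI (0.63, adjusted p = 0.00168), a pseudoreceptor that lacks the kinase domain, in the authors' deposited table. Their calls were lost in the Wald test, with an adjusted p of 0.058 for ACVR2B and 0.0543 for BAMBI. The list's median was -0.15.

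Cofactors and negative regulators of the SMAD proteins were lowered in 6 of 20 cases and raised in none, with a median log2 ratio of -0.11. All but 1 of them had a mean from 100 counts up, where 12.4% of all genes were lowered and 7.45% raised. PMEPA1, a membrane protein that is induced by TGF-beta and limits SMAD activation, fell by 1.12 on the log2 scale (adjusted p = 1.40e-11, SE 0.16) in the authors' deposited table, with derived means of 166 counts in knockdown and 362 in control cells. TGIF1, a homeodomain corepressor of SMAD2 and SMAD3, fell by 0.68 (adjusted p = 6.84e-07, SE 0.13), and the ubiquitin ligase gene SMURF2 fell by 0.53 (adjusted p = 0.00120, SE 0.17), in the authors' deposited table. TRIM33, a ubiquitin ligase that acts on SMAD4, was lower at -0.40, USP4, a deubiquitinase of the type I receptor, at -0.26, and FKBP1A, which binds the type I receptor, at -0.36 in the authors' deposited table. These last 3 calls were lost in the Wald test (adjusted p of 0.0749, 0.0573 and 0.219 for TRIM33, USP4 and FKBP1A). The feedback inhibitor SMAD7 was at -0.18 (adjusted p = 0.260, SE 0.14) in the authors' deposited table. SMURF2 also had a DoG region, with a log2 ratio of -0.44 (adjusted p = 9.43e-05, SE 0.11) in the authors' deposited table, which differed from its host's by 0.09 with a joint SE of 0.20. The region of ZFYVE9, which encodes the SMAD anchor protein SARA, was lower at -0.24 (adjusted p = 0.0424, SE 0.11) beside a host at 0.12 (SE 0.12) in the authors' deposited table. That region's log2 ratio minus its host's was -0.36 with a joint SE of 0.16. Of all 2014 DoG regions, 28.8% passed the threshold in either direction.

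Most genes known to be induced by TGF-beta missed the threshold. Of 24 listed, 23 were in the table, 6 were lowered, 1 raised and 16 not past the threshold, with a median log2 ratio of -0.08. The shares over all genes were 7.93% lowered and 4.62% raised, or 12.4% and 7.45% from a mean of 100 counts up. TGM2, the tissue transglutaminase gene, fell by 1.09 on the log2 scale (adjusted p = 2.88e-14, SE 0.14) and HMGA2, a chromatin protein gene, by 0.71 (adjusted p = 1.47e-08, SE 0.12) in the authors' deposited table. PMEPA1, already named, is also on this list, and CTGF (-0.65) and BHLHE40 (-0.42) were among the lowered genes in the authors' deposited table. IGFBP3, an insulin-like growth factor binding protein gene, rose by 0.92 (adjusted p = 3.54e-10, SE 0.14) in the authors' deposited table. Several classic targets missed the threshold, among them FN1 at -0.08 (adjusted p = 0.571, SE 0.09), IL11 at -0.02 (adjusted p = 0.948, SE 0.14) and KLF10 at 0.04 (adjusted p = 0.806, SE 0.10) in the authors' deposited table. Of 8 genes of the branch that signals without SMAD proteins 1 was raised and none lowered, counts too small to set against those shares. The authors' deposited table has that gene, TAB3, an adaptor of the kinase TAK1, at 0.27 (adjusted p = 0.0164), and its call was lost in the Wald test (adjusted p = 0.108).

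**Figure D5:**
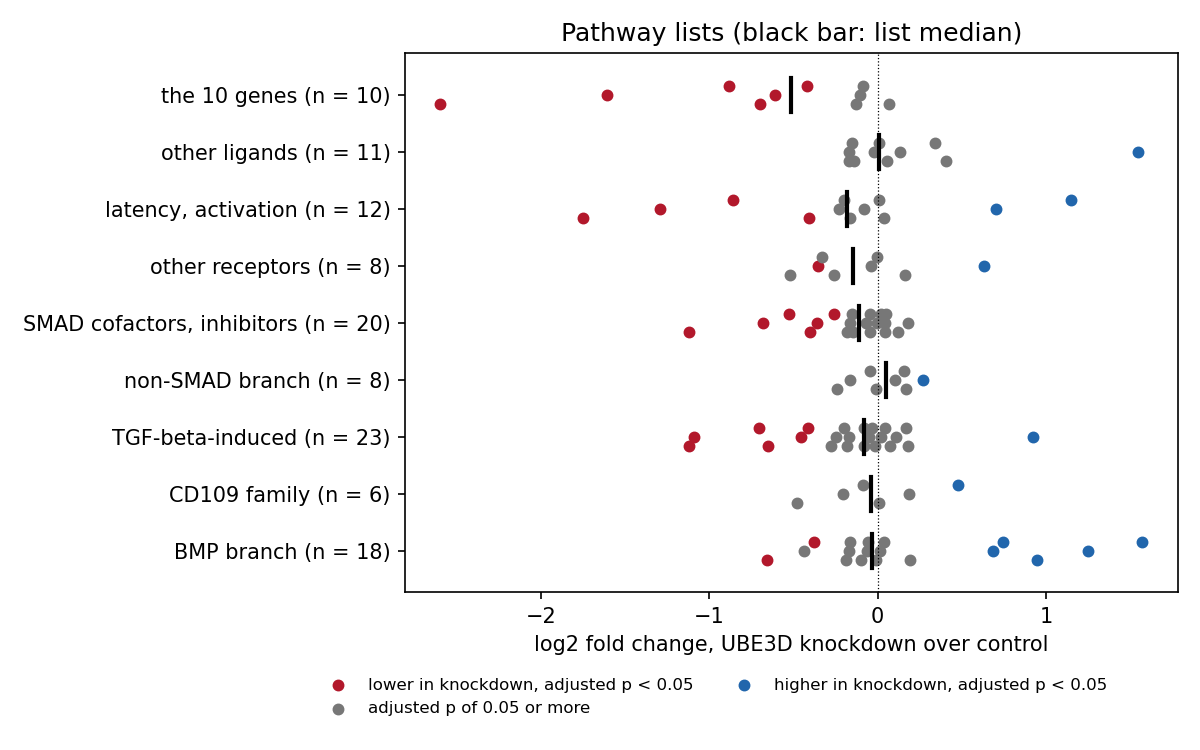
Log2 ratio (x axis, knockdown over control) of every gene in the table for the 10 genes and 8 other lists, with red for lowered, blue for raised and grey for not past the threshold, and a black bar at each list's median. The 10 genes have a median of -0.51, and the other medians lie between -0.18 and 0.05.

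Genes of the related bone morphogenetic protein (BMP) branch, which signals through SMAD1, SMAD5 and SMAD9, had 5 of 18 members raised and 2 lowered, with a median log2 ratio of -0.03. Over all genes 4.62% were raised and 7.93% lowered, and 9 of the 18 had a mean under 100 counts. ID3 rose by 1.25 on the log2 scale (SE 0.12), ID1 by 0.74 (SE 0.13) and SMAD9 by 0.68 (SE 0.21) in the authors' deposited table, beside SMAD6, the inhibitory SMAD of this branch. The ID genes are direct targets of BMP signalling and encode inhibitors of helix-loop-helix transcription factors. In the authors' deposited table ID2 was higher at 0.95 (adjusted p = 0.00250), and the type I receptor gene ACVR1 (-0.38, adjusted p = 0.0129) and ID4 (-0.66, adjusted p = 0.0425) were lower. These 3 calls were lost in the Wald test (adjusted p of 0.163, 0.180 and 1.00 for ID2, ACVR1 and ID4). The receptor-regulated genes SMAD1 (-0.06, adjusted p = 0.797) and SMAD5 (0.02, adjusted p = 0.940) missed the threshold in the authors' deposited table. Of the DoG regions named after genes of these lists, that of the ligand gene BMP6 changed most. Its log2 ratio was -1.89 (adjusted p = 4.67e-29, SE 0.17), beside 0.04 (SE 0.24) for the gene itself, per the authors' deposited tables. The region's derived means were 1062 counts in knockdown and 3942 in control cells. Its mean was 2502 counts and that of the gene 31.0, on scales that may differ. Whether the region's signal came from BMP6 transcripts was not tested.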

How the data were processed

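Per the labels' protocols, rRNA-depleted RNA of 3 knockdown and 3 control libraries was sequenced as stranded pairs. Trimming, alignment and testing tools listed in the submitters' processing notes are cutadapt 1.8.1, STAR 2.5.2b and DESeq2, with hg38 as the build. How reads were counted, on which annotation and strand, and how DoG regions were called is not given in the sources used here. Tables deposited by the authors hold 1 comparison for genes and 1 for DoG regions: per the file headers, a mean normalized count (here a signal), a log2 fold change (log2 ratio) with its SE, and a p-value with its adjusted form. The deposited adjusted p equals a Benjamini-Hochberg adjustment over each table. The log2 ratios are shrunken: over their SE they amount to a median of 0.640 of the normal score that the p-value gives, and to 0.758 to 0.982 of it in the 10 genes. Levels were not compared between the tables, which may differ in scaling.

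Calls used the deposited adjusted p under 0.05. Group means, per-kb levels and intervals of 1.96 SE were computed from the deposited values. A joint SE is the root of the summed squared SEs. It treats both log2 ratios as independent, although they come from the same libraries. Differences between a DoG region and its gene subtract shrunken log2 ratios of separate fits. They are given as a description. Alternatives were other thresholds, a minimum change, a minimum mean, a Wald test of change over SE and a shift of the median to 0. The genes, lists and words were chosen with earlier results of these data known. In each list up to 4 changed genes were named by p-value. Others named complete a count or were chosen after their values were seen, and neighbours were chosen by position. GENCODE 29 (GRCh38) gave positions and 3' UTRs, with all 10 symbols matched, and the authors' annotation may differ. One comparison gives no pattern across conditions, so no genes were ranked by likeness to the 10. The Wald test with its adjustment and the word search were tested on simulated data, and the other steps were not. Python 3.11.15, pandas 2.3.3, numpy 2.4.6, scipy 1.17.1 and matplotlib 3.10.9 were used.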

Additional observations from a re-analysis of the deposited data

How the results depend on the processing

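The lowered genes among the 10 numbered 6 at thresholds of 0.01 and 0.1, in the Wald test with and without the shift, and with the mean of at least 50 or 100, and 5 when a change of at least 1.5-fold was also required, which removes SMAD3 at 1.34-fold. None was raised under any of these settings, and the DoG region of SMAD2 passed under none of the 3 thresholds. Among the other pathway genes, 16 lowered and 6 raised became 8 lowered and 5 raised with the 1.5-fold minimum. In the Wald test, with and without the shift, they became 10 lowered and 3 raised. The UBE3D call was lost in the Wald test (adjusted p = 0.295, and 0.294 after the shift), with the log2 fold change still at -0.80. Of the BMP branch genes, 3 raised and 1 lowered have a mean of at least 100. The shift moved changes by less than 0.001 on the log2 scale. The order of the 10 genes by counts per kb depended on the length used: TGFBR2 was first with all exons and with the longest transcript, and SMAD3 was first with the median coding transcript, a length chosen after seeing the data. No paired analysis was possible because the tables hold no values per library, and for the same reason no replicate could be left out. Depth per library is unknown.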
